A study of Homo sapiens with 14 samples.

Results

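The SLC25 mitochondrial carriers, in the names SLC25A1 to SLC25A53, were examined for ChIP-seq peaks at their promoters. The 48 protein-coding genes of GENCODE whose symbols start with SLC25A were taken, of 20007 protein-coding genes in all. A promoter peak was a peak whose centre was from 2 kb upstream to 1 kb downstream of any annotated transcription start site (TSS) of the gene. With this rule, 28 of the 20429 peaks in untreated cells and 37 of the 35287 peaks after dTAG-V1 belonged to SLC25A promoters. Family members known by other symbols, such as the classical uncoupling proteins, fall outside the rule.

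The cells were HEK293T, an established human embryonic kidney line, in a single clone (HEK_CloneZD29) whose ZNF143 is fused to the FKBP12F36V degron and a 2xHA tag. The tag was present in both groups. dTAG-V1 is a small molecule that recruits the VHL ubiquitin ligase to the tag, so that the tagged protein is degraded. Chromatin was precipitated with a polyclonal anti-ZNF143 antibody from Proteintech in 4 untreated samples and in 4 samples given 0.5 µM dTAG-V1 for 30 min. The comparison asks which sites this antibody enriches in untreated cells and after dTAG-V1. How much ZNF143 remained after 30 min cannot be read from the peak lists and was not assessed here. Each condition is represented by 1 peak list with no values for single samples, so that no difference between the lists can be set against the spread between replicates and no test was run. The depth of the libraries behind the lists is unknown here. The study's methods describe a different rule for reproducible peaks in each condition, with all 4 replicates required for the untreated cells but only 1 or more of 4 for dTAG-V1. The files do not say whether this was applied to them, so presence in the dTAG-V1 list alone cannot be told apart from that rule. The names of the untreated peaks mention DMSO, whereas the labels describe no treatment, and the labels were followed.

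SLC25 carriers sit for the most part in the inner mitochondrial membrane, where they exchange nucleotides, amino acids, carboxylates, cofactors, phosphate and metal ions between the matrix and the cytosol. They are encoded in the nucleus and follow a shared fold built from repeated pairs of membrane helices. ZNF143 is a zinc finger transcription factor that binds promoters through long recognition sequences called SBS1 and SBS2, which share the letters TTCCCAG, and SBS2 carries ACTACA in front of them. CTCF is another zinc finger protein, best known for its binding at chromatin loop anchors.

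Matrices for these 3 motifs were learned from the peaks. Their most frequent letters were CCACCAGGGGGCAC for CTCF, TTCCCAGCATCCCNTGCN for SBS1 and ACTACATTTCCCAGNATNCCN for SBS2, with N where no letter prevailed. Both strands were searched, and a stretch was counted as a hit at p 5e-05 or, more strictly, at p 1e-05. The best SBS2 hits at the stricter level are shown first, because SBS2 is the longer ZNF143 motif, and that of SLC25A51 follows with the CTCF hits. Sequences are from the hg38 reference and read 5′ to 3′ on the strand given, with the hit in capitals.
SLC25A27, chr6:46652938-46652966, plus strand: gcggACTACATTGCCCAGTAACCTCctgg
SLC25A13, chr7:96321342-96321370, minus strand: ctttCCCATCATTCCCATCTTCCCCctcc
SLC25A14, chrX:130339704-130339732, plus strand: cctgCCTCCACCTCCCGCAAGTCCGgttg
SLC25A42, chr19:19063193-19063221, minus strand: gaccTCTCTGCGTCCCAGCTTTCCCcgcc

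Only SLC25A27 carried ACTACA among these 4 sequences. Its hit also had the lowest p-value of the 4, at 2.21e-07, whereas those of SLC25A13, SLC25A14 and SLC25A42 had 5.84e-06, 6.19e-06 and 8.93e-06. The SLC25A32 promoter held an SBS2 hit at p 9.19e-06, which is named only. Some of the highest peaks had no SBS2 hit at this level, and their best SBS1 hits are given next. They were chosen for display after their values had been seen.
SLC25A53, chrX:104156999-104157028, plus strand: acggagCTCCCACAATCCTCTTTGcttccg
SLC25A11, chr17:4940062-4940091, minus strand: gccttaCTCCCGGCCGCCTTTGCGctgcgc
SLC25A21, chr14:37172102-37172131, plus strand: aatcaaCTCCCGGCCTCCTCTGCTctcgcg
SLC25A20, chr3:48898905-48898934, minus strand: gccctcCTCCCGACCTGCCCCGGGctcgtg

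Each of these 4 hits began with CTCCC. The SLC25A11 hit had p 1.43e-08 and the SLC25A21 hit p 4.85e-08, while the SLC25A20 and SLC25A53 hits had p 5.06e-07 and 3.53e-06. The 5 best CTCF hits were those of SLC25A44, SLC25A45, SLC25A48, SLC25A1 and SLC25A51. The SLC25A51 line is longer because its capitals join a CTCF hit, read here on the opposite strand, and an SBS2 hit that shares 7 bp with it.
SLC25A44, chr1:156194044-156194073, minus strand: taccgcccCCTGCAGGGGGCGGaggatgag
SLC25A45, chr11:65382401-65382430, plus strand: tagcgtggCCACCAGGGGGTAGgcccagcc
SLC25A48, chr5:135835032-135835061, minus strand: ctgcaagaCCACCAGGGGGATCtcggggcc
SLC25A1, chr22:19179574-19179603, plus strand: caaactggCCTGGAGGGGGCAGctccagcc
SLC25A51, chr9:37904399-37904446, minus strand: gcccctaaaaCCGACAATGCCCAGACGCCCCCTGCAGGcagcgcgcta

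The capitals of SLC25A45 and SLC25A48 share CCACCAGGGGG. The SLC25A44 sequence holds a palindrome, and the matrix matched it on both strands with p 1.53e-07.

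In untreated cells, 25 of the 48 SLC25A genes (52.1%, 95% Wilson interval 38.3 to 65.5) had a promoter peak, beside 40.5% of all protein-coding genes. After dTAG-V1 there were 31 (64.6%, 50.4 to 76.6), beside 48.2% of all genes. Intervals here and below cover counting error only. In both lists were 24 SLC25A genes (50.0%, 36.4 to 63.6), and 37.1% of all genes. The background share lay inside the SLC25A interval in untreated cells and in both lists, and just below it after dTAG-V1. SLC25A genes also had more annotated start sites, with a median of 6.5 per gene against 5 over all genes, and the part of this in the counts was not tested. Whether the background fell inside the interval depended on the window. With the canonical start site alone, 24 SLC25A genes (50.0%, 36.4 to 63.6) had an untreated peak and 23 (47.9%, 34.5 to 61.7) had one in both lists, and the backgrounds of 35.3% and 31.9% lay below these intervals. With the peak centre within 500 bp of a start site, 24 genes (50.0%, 36.4 to 63.6) were in the dTAG-V1 list, and the background of 39.1% lay inside.

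Other nuclear genes for mitochondrial proteins had promoter peaks in larger shares. Of the 78 MRPL and MRPS genes, which encode the mitochondrial ribosomal proteins, 69 were in the untreated list (88.5%, 79.5 to 93.8). Of the 40 NDUF genes, which encode subunits of respiratory complex I, 37 were in it (92.5%, 80.1 to 97.4). Both intervals lay above that of the SLC25A genes, and the difference itself was not tested.

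**Figure D1:**
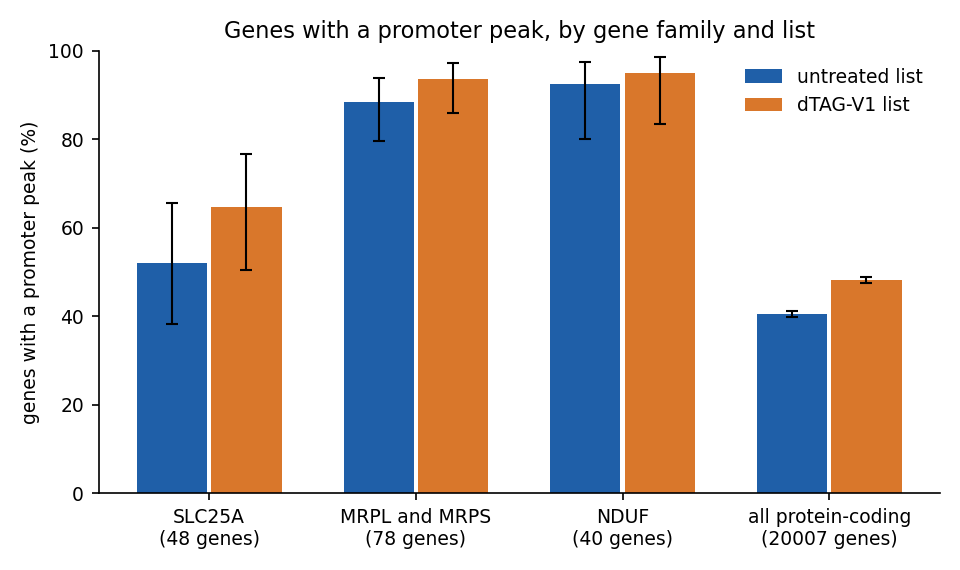
Share of genes with a promoter peak in percent (y axis) for SLC25A, MRPL and MRPS, NDUF and all protein-coding genes (x axis), in the untreated list (blue) and the dTAG-V1 list (orange), with 95% Wilson intervals as error bars. SLC25A genes stood at 52.1% and 64.6%, nearer to all genes (40.5% and 48.2%) than to the ribosomal protein genes (88.5% and 93.6%).

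The counts by substrate group are given as a description, with no test between groups. None of the 4 ADP/ATP carriers (SLC25A4, SLC25A5, SLC25A6 and SLC25A31), which exchange the ATP made in the matrix for cytosolic ADP, had a promoter peak in either list. SLC25A6 lies in the pseudoautosomal region of the X chromosome, in which the lists held only 4 untreated and 17 dTAG-V1 peaks. Reads there can map to X and Y alike and uniquely mapped reads were kept, and absence of binding cannot be told apart from loss of reads at SLC25A6.

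By contrast, all 4 carriers of di- and tricarboxylates had a peak in both lists. These are SLC25A1, the citrate carrier, SLC25A10, the dicarboxylate carrier, SLC25A11, which exchanges oxoglutarate for malate, and SLC25A21, which carries oxoadipate. Presence was counted whatever the height of the peak. In the untreated list, the SLC25A10 and SLC25A1 peaks stood low, at 88.4% and 78.0% from the top by score. The SLC25A10 peak had a −log10 q-value of 4.76, below the stricter cut of 5, and its summits in both lists were 358 bp apart. All 3 relatives of the uncoupling proteins (SLC25A14, SLC25A27 and SLC25A30) were also in both lists. Groups of 3 or 4 genes give wide intervals, from 51.0% upwards for 4 of 4 and up to 49.0% for 0 of 4.

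Among the 10 carriers of nucleotides, cofactors and vitamins, 7 were in both lists. They included SLC25A16, linked to coenzyme A, SLC25A17, a peroxisomal cofactor carrier, SLC25A26, the S-adenosylmethionine carrier, SLC25A32, linked to folate and flavin transport, SLC25A36, a pyrimidine nucleotide carrier, and SLC25A51, the NAD+ carrier. SLC25A42, a coenzyme A carrier, had a peak only after dTAG-V1. The second pyrimidine carrier SLC25A33 and the SLC25A51 paralogue SLC25A52 had none. Near-identical paralogues share sequence, and what unique mapping removed at SLC25A52 was not tested.

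Of the 4 carriers for aspartate and glutamate, SLC25A12 and SLC25A13 (both exchange aspartate for glutamate) were in both lists, and the glutamate carriers SLC25A18 and SLC25A22 were in neither. Of the 6 carriers of other amino acids and carnitine, SLC25A20, the carnitine and acylcarnitine carrier, and SLC25A44, a carrier of branched-chain amino acids, were in both, and SLC25A15, an ornithine carrier, was in the dTAG-V1 list only. SLC25A2, SLC25A29 and SLC25A38, the last a glycine carrier, were in neither. Among 4 genes for iron and glutathione, SLC25A28 (mitoferrin 2) and SLC25A40 were in both, SLC25A39, a glutathione carrier, was in the untreated list only, and SLC25A37 (mitoferrin 1) was in neither.

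SLC25A23 of the calcium-regulated ATP-Mg/phosphate carriers was in both lists, its relatives SLC25A24 and SLC25A25 were in the dTAG-V1 list only and SLC25A41 was in neither. SLC25A3, which carries phosphate and copper, was in the dTAG-V1 list only. In the remaining group of 8, SLC25A35, SLC25A46 and SLC25A53 were in both lists, SLC25A45 and SLC25A48 in the dTAG-V1 list only, and SLC25A34, SLC25A43 and SLC25A47 in neither.

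**Figure D2:**
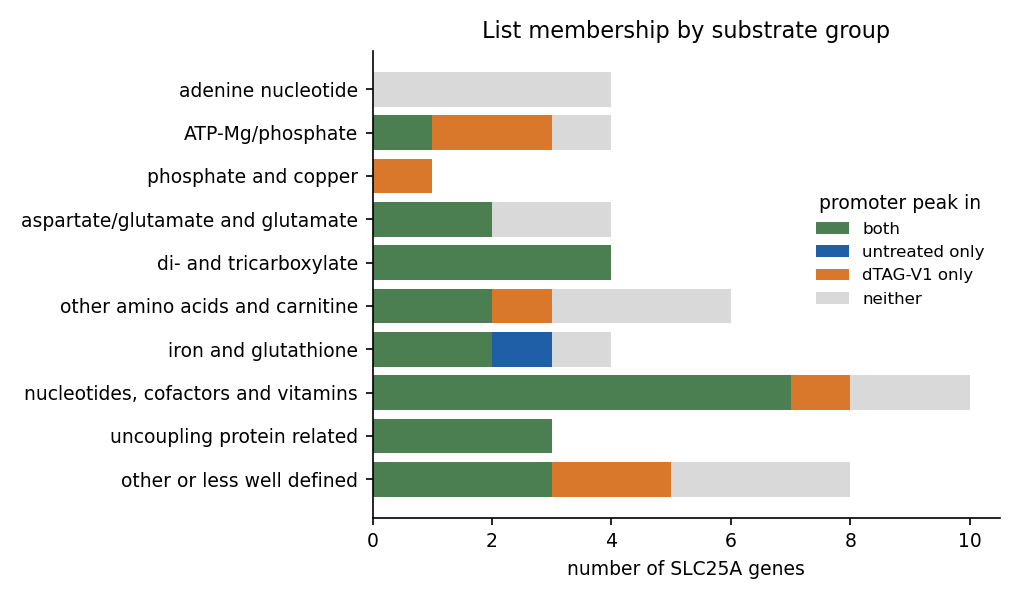
Number of SLC25A genes (x axis) in each substrate group (y axis), coloured by the list that held a promoter peak. All 4 di- and tricarboxylate carriers were in both lists and all 4 adenine nucleotide carriers in neither. Presence is counted whatever the height of the peak, and the untreated SLC25A10 and SLC25A1 peaks were low.

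No promoter peak in either list was found for 16 SLC25A genes (33.3%, 21.7 to 47.5), beside 48.5% of all protein-coding genes. The distances and positions that follow were taken for SLC25A genes only. For these 16 genes, the nearest peak was 3.46 to 282 kb from a start site in the untreated list (median 19.0 kb). In the dTAG-V1 list it was 2.36 to 282 kb away (median 17.5 kb). SLC25A31 was the nearest to the window, with a dTAG-V1 peak at 2.36 kb. Of the 28 untreated SLC25A peaks, 19 had their summit upstream of the canonical transcript, 4 in an intron, 3 in a 5′ UTR exon, 1 in a coding exon and 1 downstream. Of the 37 dTAG-V1 peaks, 23 were upstream and 10 in an intron. The summit lay within 500 bp of a start site of its gene in 23 of 28 and 27 of 37 peaks. In 6 untreated and 9 dTAG-V1 peaks the same peak was also a promoter peak of a neighbouring gene, so that these peaks cannot be assigned to the carrier alone.

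Peaks were ordered by the MACS2 score within each list. A score is 10 times the −log10 q-value, and the fold enrichment is the summit signal divided by the background around it. The highest SLC25A peak of the untreated list was at SLC25A53 (ENSG00000269743.3), a carrier whose substrate is not well defined. It spanned chrX:104156621-104157339 with a score of 99526 and an enrichment of 31.0-fold, at rank 229 of 20429. In the dTAG-V1 list it had a score of 23420 and 24.0-fold, at rank 437 of 35287. The summit was at the same base in both lists, 29 bp downstream of the canonical start site in the 5′ UTR exon, and the SBS1 hit overlapped that start site.

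SLC25A27 (ENSG00000153291.16), a brain-enriched relative of the uncoupling proteins, had scores of 29037 and 8301, enrichments of 28.1-fold and 18.3-fold, and ranks 1104 and 1040 in the untreated and the dTAG-V1 list. Its summits were 2 bp apart, and the SBS2 hit was centred 8 bp from the untreated one and 23 bp before the start site. CYP39A1, a cholesterol metabolism gene, shares this peak. SLC25A21 (ENSG00000183032.12) had scores of 14462 and 1085 at ranks 1535 and 2196, with enrichments of 24.7-fold and 8.36-fold. Its summits were 3 bp apart in intron 1, with the SBS1 hit centred 16.5 bp from the untreated and 13.5 bp from the dTAG-V1 summit.

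SLC25A11 (ENSG00000108528.14) had scores of 5852 and 1875 at ranks 2144 and 1801, and enrichments of 17.5-fold and 11.6-fold. Its summits were 4 bp apart, and RNF167, a ubiquitin ligase gene, shares the peak. The SBS1 hit was centred 27.5 bp from the untreated summit. A CTCF hit (p 6.32e-06) in the same peak was centred 69.5 bp from the untreated and 65.5 bp from the dTAG-V1 summit. These 4 genes had a high place in both lists, with summits at most 4 bp apart.

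The next 3 genes of the untreated list stood much lower in the dTAG-V1 list. SLC25A13, the aspartate/glutamate carrier also called citrin, had a score of 5337 and 18.2-fold enrichment at rank 2221 in untreated cells. After dTAG-V1 it had a score of 127 and 3.35-fold at rank 15840. Its peak, in intron 1, was 633 bp wide untreated and 280 bp wide after dTAG-V1. The untreated summit lay 6 bp from the centre of the best SBS2 hit. The dTAG-V1 summit lay 59 bp further towards a CTCF hit (p 6.06e-06). This CTCF hit was centred 111.5 bp from the untreated summit and 52.5 bp from the dTAG-V1 summit. Permissive SBS hits were as near to the dTAG-V1 summit, with an SBS2 hit (p 2.54e-05) centred 47 bp and an SBS1 hit (p 3.41e-05) 52.5 bp away. The position of this summit therefore cannot tell the motifs apart.

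The CTCF hit and the best SBS2 hit of SLC25A13 are given in 1 stretch to show their spacing. The CTCF hit, read on the opposite strand, is the first run of capitals and the SBS2 hit the second. Other SBS hits in the stretch are not marked.
SLC25A13, chr7:96321336-96321490, minus strand: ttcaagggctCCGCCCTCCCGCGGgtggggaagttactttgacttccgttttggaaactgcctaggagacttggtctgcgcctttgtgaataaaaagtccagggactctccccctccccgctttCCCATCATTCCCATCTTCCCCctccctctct

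The other two were SLC25A20 and SLC25A32. SLC25A20 had a score of 3395 and 12.8-fold enrichment at rank 2549 untreated, and a score of 220 and 3.82-fold at rank 8444 after dTAG-V1. The untreated summit was 11.5 bp from the centre of its best SBS1 hit and the dTAG-V1 summit 154.5 bp, with another SBS1 hit (p 1.27e-05) centred 3.5 bp from the latter. SLC25A32 had a score of 3174 and 14.8-fold at rank 2603, and a score of 247 and 4.06-fold at rank 7249. Its summits were 3 bp apart on the SBS2 hit, and DCAF13, a ribosome assembly gene, shares the peak. A second dTAG-V1 peak of SLC25A32 had a score of 46.

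SLC25A44 and SLC25A23 were also among the 10 highest genes of the untreated list. SLC25A44 had a score of 811 and 6.95-fold enrichment at rank 4210 untreated, and a score of 215 and 3.82-fold at rank 8737 after dTAG-V1. It was the highest SLC25A peak without an SBS hit at either level. Its CTCF hit was centred 339.5 bp from the untreated summit, in a peak 939 bp wide. SLC25A23 had a score of 240 and 4.78-fold at rank 7968, and a score of 121 and 3.59-fold at rank 16515.

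SLC25A51 stood higher in the dTAG-V1 list. Its peak had a score of 219 and 4.53-fold enrichment at rank 8380 in untreated cells and a score of 380 and 5.73-fold at rank 4259 after dTAG-V1. The CTCF hit that shares 7 bp with the SBS2 hit was centred 0.5 bp from the untreated summit and 14.5 bp from the dTAG-V1 summit. SBS and CTCF hits that share bases were also found at SLC25A14 (14 bp in common with SBS2) and SLC25A48 (11 bp in common with SBS1). At these 3 promoters the same bases fit both matrices, and a summit position cannot tell them apart.

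Scores and folds depend on the depth and background of each list, and ranks on its length. Set side by side above, they describe each list and do not measure a change between lists. For a common order, the 14794 merged regions present in both lists were ordered by score in each list. The places of the SLC25A regions in these orders were set side by side. SLC25A53 stood in the top 1.55% of the untreated order and in the top 2.95% of the dTAG-V1 order. SLC25A13 stood at 14.9% and 66.6%, SLC25A20 at rank 2513 and 6693 and SLC25A32 at 17.3% and 41.0%. SLC25A44, with a CTCF hit and no SBS hit, also stood lower, at 24.9% and 46.2%, as did SLC25A23, with no strict hit, at 41.6% and 68.4%. SLC25A51 went the other way, from 43.4% to 27.7%, as did SLC25A1, from 80.6% to 57.4%. So did the SLC25A35 region shared with RANGRF, from 94.8% to 68.4%, and SLC25A30, with no strict hit, from 83.3% to 63.4%. These regions are examples, and whether the moves go with a motif was not tested. A change of place is not a change of signal, since all regions are ordered together and the lists hold no signal for single samples.

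Over the 24 SLC25A regions, 12 stood higher in the dTAG-V1 order (50.0%), beside 41.7% of the 6429 promoter regions of all genes in both lists. The median move was 0.632 percentage points down for SLC25A and 1.18 points down for all genes. Among all promoter regions, those with a strict CTCF hit and no strict SBS hit stood higher in the dTAG-V1 order in 61.5% of 611 cases, and those with a strict SBS hit alone in 35.3% of 2839. The SLC25A regions were 1 of 2 with CTCF alone and 3 of 9 with SBS alone, which is too few to set against these shares.

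**Figure D3:**
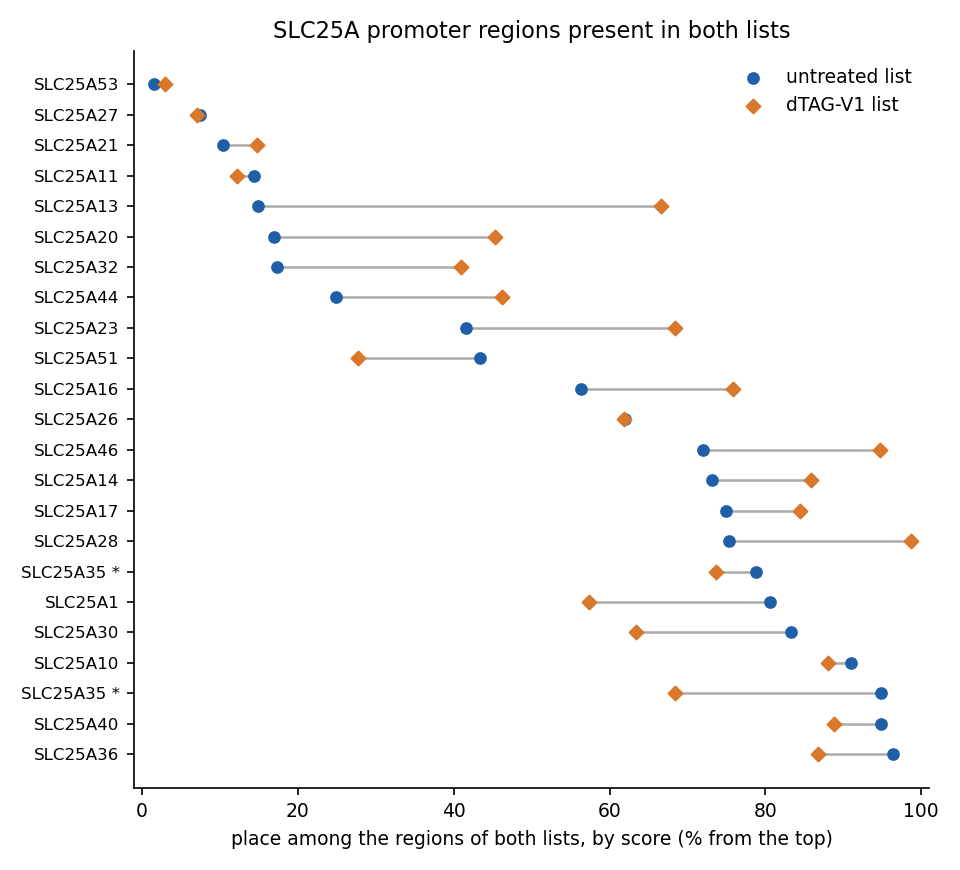
Place of 23 SLC25A regions among the 14794 regions of both lists, in percent from the highest score (x axis), in the untreated list (blue circles) and the dTAG-V1 list (orange diamonds), with 1 row per region and an asterisk at the pair of SLC25A35 regions. SLC25A53, SLC25A27, SLC25A21 and SLC25A11 lay in the first 15% in both orders, and SLC25A13 moved from 14.9% to 66.6%.

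The summits of the 24 regions were a median of 78.5 bp apart between the lists, and 27 bp apart over all 6429 promoter regions. Of the 24, 11 had both summits within 50 bp (45.8%), beside 62.9% of all. The largest distance was 777 bp, at SLC25A40, whose region is shared with DBF4, a cell cycle kinase subunit gene.

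Genes present in a single list had low peaks, with scores from 31 to 164. SLC25A39 was the only gene in the untreated list alone, which was the case for 3.36% of all genes. Its peak had a score of 86 at rank 14195, with no SBS or CTCF hit. The call rests on the window, since a dTAG-V1 peak with a score of 134 was centred just outside it, at -2164 bp from the start site, and the untreated peak inside it at -1688.5 bp.

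The dTAG-V1 list alone held 7 SLC25A genes (14.6%, 7.25 to 27.2), and 11.0% of all genes. SLC25A45 had the highest of these peaks, with a score of 164 and 3.92-fold enrichment at rank 12111. Its summit in intron 1 was 30.5 bp from a CTCF hit at p 1.58e-07 and 5.5 bp from an SBS1 hit at p 3.24e-06. SLC25A25 had a peak with a score of 148 at rank 13683, shared with NAIF1, and a second one with a score of 55 at rank 27629.

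SLC25A42 had a score of 121 at rank 16515, with its summit 31 bp from the SBS2 hit and 120.5 bp from a CTCF hit at p 1.91e-05. SLC25A24 had a score of 116 at rank 17169, and SLC25A48 a score of 79 at rank 22823 with its summit 30.5 bp from the CTCF hit. SLC25A3 had a score of 60 at rank 26498 with no motif hit. SLC25A15, with peaks at scores of 55 and 31, had the lowest rank of all SLC25A peaks, 33839. Of the 7 genes, SLC25A42, SLC25A45 and SLC25A25 had a strict SBS hit, and SLC25A45 and SLC25A48 a strict CTCF hit. By region, strict SBS hits were in 3 of the 13 SLC25A regions with dTAG-V1 peaks only (23.1%) and strict CTCF hits in 2 (15.4%), beside 14.4% and 25.1% of all such promoter regions.

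Merging the peaks of both lists gave 41 SLC25A regions of 40687 in all. Of these, 24 (58.5%, 43.4 to 72.2) had peaks of both lists, 4 (9.76%) of the untreated list only and 13 (31.7%) of the dTAG-V1 list only. Over all promoter regions the shares were 55.9%, 10.6% and 33.5%. These counts rest on an overlap of 1 bp. When the overlap had to cover 50% of both peaks, 11 SLC25A regions (22.9%) were of the untreated list only and 20 (41.7%) of the dTAG-V1 list only, beside 19.3% and 39.7% of all promoter regions. The 4 untreated-only regions were at SLC25A12, SLC25A28, SLC25A30 and SLC25A39. SLC25A12 counts as present in both lists through different alternative start sites. Its untreated summit lay at -68 bp and a dTAG-V1 summit at -1155 bp from start sites inside the gene, both in intron 11 of the canonical transcript, and the other dTAG-V1 peak is shared with METAP1D. It had no peak at the canonical start.

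In the untreated list, 17 of the 28 SLC25A peaks were past the middle of the ranking, beside 3042 of the 7701 promoter peaks of all genes. Ranked from the highest score, the median place of the SLC25A peaks was 69.6% of the list. The median over promoter peaks of all genes was 37.7% and that of the MRPL and MRPS genes 20.9%. In the dTAG-V1 list the median SLC25A place was 48.7%, close to the 46.8% of all promoter peaks. There, 18 of 37 SLC25A peaks were past the middle, beside 4903 of 10295. The middle of the SLC25A range was broad, with quartiles of 12.7% and 78.5% in the untreated list. Only 4 of 28 untreated peaks (among them SLC25A53, SLC25A27 and SLC25A21) and 5 of 37 dTAG-V1 peaks (among them the same 3 and SLC25A11) were in the top 10% of their list, which is 14.3% (5.70 to 31.5) and 13.5% (5.91 to 28.0), beside 20.6% and 20.8% of all promoter peaks. At the low end, the smallest scores were 35 and 31 at folds of 2.22 and 2.11.

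Motif hits were counted over the whole length of each peak. The median width of SLC25A peaks was 411 bp untreated and 556 bp after dTAG-V1. Over all promoter peaks it was 490 bp and 505 bp, and the part of width in the shares was not tested. SBS hits were found in 17 of the 28 untreated SLC25A peaks (60.7%, 42.4 to 76.4), beside 77.4% of all promoter peaks, and in 28 of the 37 dTAG-V1 peaks (75.7%, 59.9 to 86.6), beside 65.3%. At p 1e-05 these were 11 of 28 (39.3%) and 15 of 37 (40.5%), beside 52.6% and 37.9%. CTCF hits were found in 9 of 28 (32.1%, 17.9 to 50.7) and 15 of 37 (40.5%, 26.3 to 56.5), beside 38.2% and 42.4%, and at p 1e-05 in 5 of 28 (17.9%) and 8 of 37 (21.6%), beside 17.1% and 22.4%. Only the untreated SBS share at p 5e-05 lay below the background with an interval that did not reach it. With matrices learned from the even-numbered autosomes the shares were 71.4% and 76.4%, and the interval of the first (52.9 to 84.7) reached the second. For hits within 100 bp of the summit, the untreated SBS share was 46.4% (29.5 to 64.2), beside 60.5% of all promoter peaks. With the fixed letters TTCCCA or ACTACA it was 53.6% (35.8 to 70.5), beside 54.7%. Both of these intervals also reached the background.

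Permissive SBS hits were also present in most promoters of all genes, irrespective of peaks. In the 300-base promoters of RefSeq (GRCh38.p14), an SBS hit at p 5e-05 was in 26 of the 40 SLC25A promoters that could be matched (65.0%) and in 63.1% of 15345 protein-coding promoters. At p 1e-05 these were 42.5% and 33.9%, and for SBS2 alone 10.0% and 11.1%. CTCF hits were in 16 of 40 SLC25A promoters (40.0%, 26.3 to 55.4) and 27.9% of all promoters at p 5e-05, and in 10.0% and 10.7% at p 1e-05. The strict SBS2 hits were at SLC25A14, SLC25A27, SLC25A34 and SLC25A47, of which SLC25A34 and SLC25A47 had no peak in either list. A match is a description of the letters only.

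Strict SBS hits were frequent among the highest SLC25A peaks. All 4 untreated and all 5 dTAG-V1 SLC25A peaks in the top 10% had a strict SBS hit, compared with 7 of 24 and 10 of 32 below it. Over all promoter peaks of the top 10% the shares were 95.3% and 82.3%, and 41.5% and 26.3% below it. Among SLC25A peaks with a strict SBS hit, the nearest was within 50 bp of the summit in 10 of 11 untreated (90.9%, 62.3 to 98.4) and 10 of 15 dTAG-V1 peaks (66.7%, 41.7 to 84.8), beside 69.1% and 54.6% over all promoter peaks. Strict CTCF hits were this near in 2 of 5 (40.0%) and 3 of 8 (37.5%), beside 36.7% and 56.4%. The untreated summits of the SLC25A peaks with strict SBS hits thus lay on or beside the motif in all but 1 case, SLC25A14, where it was 148 bp away.

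**Figure D4:**
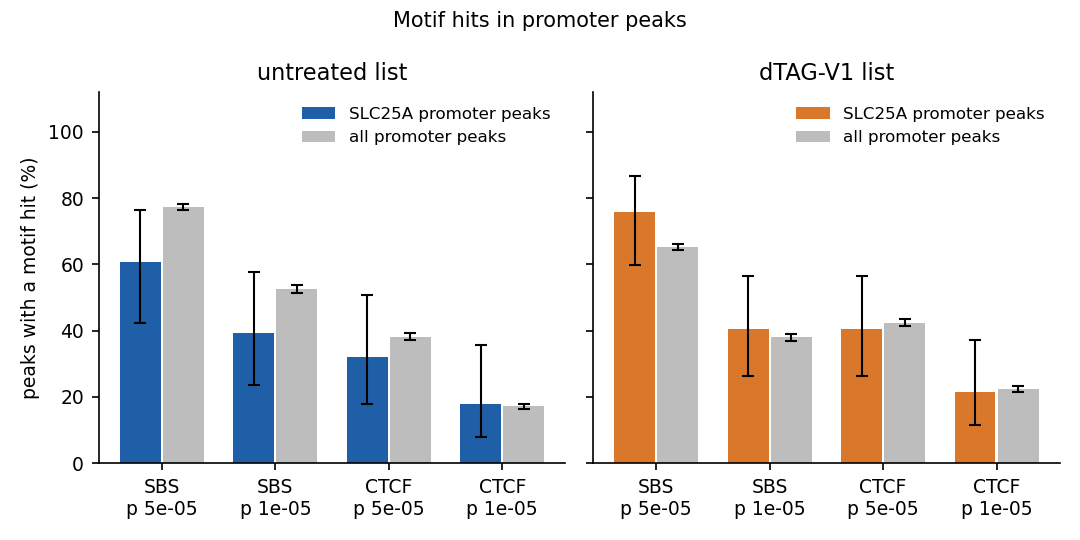
Share of promoter peaks with an SBS or a CTCF hit in percent (y axis) at p 5e-05 and p 1e-05 (x axis), for SLC25A (colour) and all protein-coding genes (grey) in the untreated list (left) and the dTAG-V1 list (right), with 95% Wilson intervals. SLC25A peaks with an SBS hit at p 5e-05 were 60.7% against 77.4% untreated and 75.7% against 65.3% after dTAG-V1. These hits were counted over whole peaks, which differ in width. Within 100 bp of the summit the shares were 46.4% against 60.5% untreated and 45.9% against 42.1% after dTAG-V1.

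**Figure D5:**
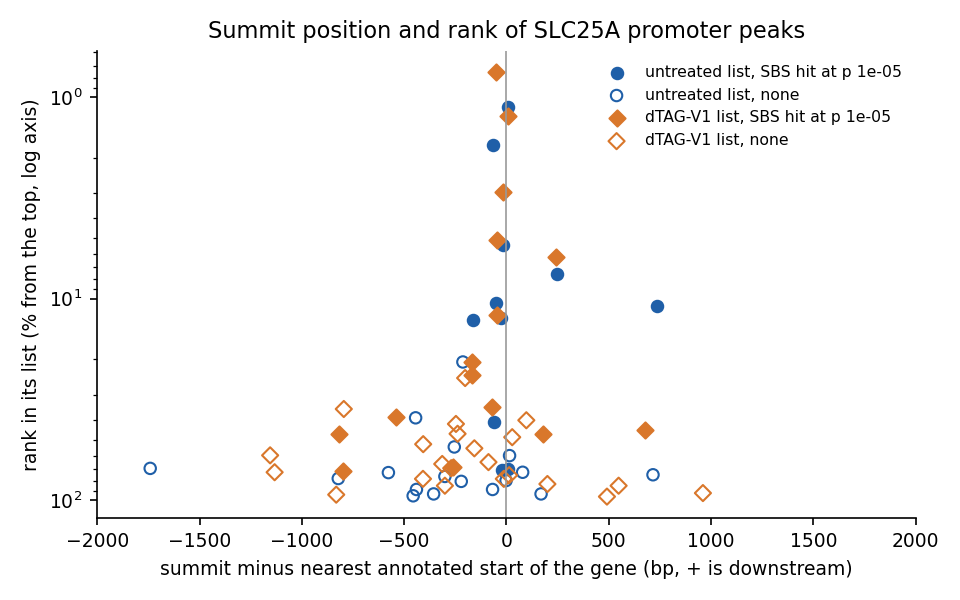
Distance of each SLC25A summit from the nearest annotated start site of its gene in bp (x axis) against the rank of the peak in its list, in percent from the top on a log axis (y axis). Circles are untreated and diamonds dTAG-V1 peaks, filled where the peak held an SBS hit at p 1e-05, and the filled points make up the whole top 10% of both lists.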

How the data were processed

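ZNF143 ChIP-seq of 8 samples (4 untreated, 4 dTAG-V1) was available as 1 narrow peak list per condition in hg38. The 6 CTCF samples of the 14 in the series were not analysed here. Per the methods, the authors aligned reads with bwa mem, kept unique proper pairs, removed duplicates with Picard and called narrow peaks with MACS2 outside blacklisted regions. No control library was named for this call. The peak names in each list come from 1 call per condition, and how the replicates entered it is not given in the sources used here. The deposited score is the whole-number score of MACS2. The deposited fold enrichment is a ratio over the local background at the summit. The deposited −log10 q-value comes from the same call and was at least 2.01 in both lists, and the p-value column was not used. Columns left unused for lack of a sample numbered 0.

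Start sites were those of all transcripts of protein-coding genes in GENCODE release 44. Lists were merged at an overlap of 1 bp. The 3 matrices were learned from merged peaks on odd-numbered autosomes, starting from a consensus with at most 2 mismatches and iterated 10 times with a pseudocount of 0.8 and the best site per peak at p 1e-06. Matrices and peak assignment were tested on simulated data. Wilson intervals are at 95%. Software was samtools 1.23.1 and Python 3.11.15, with matplotlib 3.10.9, pysam 0.24.0, scipy 1.17.1, pandas 2.3.3 and numpy 2.4.6.

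The genes, substrate groups and comparison families were chosen with earlier results of these data known. Named in full were the 10 highest SLC25A genes by score in each list, genes with peaks in 1 list only, SBS2 hits at p 1e-05 and the 5 best CTCF hits, with neighbours that share a peak. An SLC25A gene that enters the family's counts and medians is not reported here by itself. The alternatives changed the start sites, the window, the summit for the centre, the q-value, the overlap, the motif settings and the ranking.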

Additional observations from a re-analysis of the deposited data

How the results depend on the processing

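Of 46 values recomputed under another setting, 37 stayed within 1.5 times the count, or within the interval of the share or median, and 9 moved outside. With an overlap covering 50% or more of both peaks required, 11 SLC25A regions had untreated peaks only (4 otherwise) and 20 had dTAG-V1 peaks only (13 otherwise), with 17 in both lists. At hits of p 1e-05, the SBS share was 39.3% untreated and 40.5% after dTAG-V1, and the CTCF share 17.9% and 21.6% (all promoter peaks 52.6%, 37.9%, 17.1% and 22.4%). Within 100 bp of the summit, the untreated CTCF share was 14.3% and the dTAG-V1 SBS share 45.9% (all promoter peaks 19.7% and 42.1%). With the fixed letters TTCCCA or ACTACA, the dTAG-V1 SBS share was 51.4%, beside 53.4% of all promoter peaks. The number of SLC25A genes with a peak ranged from 20 to 25 untreated and from 24 to 31 after dTAG-V1. The lowest counts, with the peak centre within 500 bp of a start site, were 41.7% and 50.0%, beside 34.8% and 39.1% of all genes. At a −log10 q-value of at least 5 the shares were 43.75% and 60.4%, beside 37.7% and 43.5% of all genes. The 24 SLC25A genes in both lists became 18 (37.5%, 25.2 to 51.6) with the 500 bp window, and also 18 with this q-value. The shares of all genes in both lists were then 30.9% and 33.6%. No paired analysis was possible because the lists hold no values for single replicates. Limits are the single clone, the pooled lists with their possibly unequal replicate rules, the unknown depth, and the 48 genes, whose groups of 1 to 10 leave wide intervals.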
